A study of Mus musculus with 10 samples.

Results

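Notch receptors, their ligands and the Hes and Hey genes that the pathway switches on were followed in the trigeminal ganglia of mouse embryos with and without Prdm12, a zinc finger gene needed for the development of pain-sensing neurons. The 10 genes are the receptors Notch1, Notch2 and Notch3, the ligands Dll1, Dll3, Jag1 and Jag2, and the targets Hes1, Hes5 and Hey1. They were taken as a family by name and matched by Ensembl ID, 10 of the 55414 gene IDs measured. All 10 passed the filter on low counts that left 18005 genes for testing. RNA sequencing libraries came from C57Bl6 embryos at embryonic stage E13.5, 5 of them Prdm12-/- (knockout 16, 29, 42, 49 and 50) and 5 Prdm12+/+ (wild type 22, 24, 32, 35 and 45). Every sample, controls included, was also labelled Sox10 Venus+. The labels mention dissection but no sorting, do not say what the Prdm12 allele lacks and do not name the embryo behind each library, so the spread between libraries may be partly technical. Titles begin with a different letter in each genotype, and whatever that letter marks cannot be told apart from genotype.

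Notch proteins are membrane receptors that are activated by ligands on a neighbouring cell. Binding lets proteases cut the receptor, and the freed intracellular part enters the nucleus, joins the DNA-binding protein RBPJ and turns on repressor genes of the Hes and Hey families. In developing sensory ganglia this contact signal holds back neuronal differentiation and favours progenitor and glial fates, while in blood vessels the same pathway acts in endothelial and mural cells.

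The Hes5 promoter is shown because it holds the RBPJ motif itself, the link between receptors and targets in this list. The sequence is the 250 bases upstream of the RefSeq gene start, on the + strand at chr4:154960673-154960922 of GRCm38.p6, written 5′ to 3′ with matches to GTGGGAA in capitals (the first lies on the opposite strand and reads TTCCCAC).
Hes5: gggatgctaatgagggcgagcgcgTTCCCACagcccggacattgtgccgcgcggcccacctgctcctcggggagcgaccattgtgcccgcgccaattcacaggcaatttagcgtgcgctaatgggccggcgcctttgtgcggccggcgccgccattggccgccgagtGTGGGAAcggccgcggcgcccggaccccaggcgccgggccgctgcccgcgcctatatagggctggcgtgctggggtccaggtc
The matches begin 226 and 83 bases before the start. RefSeq promoter windows of 300 bases (250 before to 50 after the start) were at hand for 8 of the 10 genes, 9 windows in all. Hes1 and Hey1 had no window, so Hes5 was the only target searched, beside receptors and ligands. Hes5 was the 1 gene of the 8 with GTGGGAA on either strand, and nothing is known here of Hes1 and Hey1. Of 32851 such windows over all genes, 6.38% held at least 1 match and 0.256% at least 2. The shorter core TGGGAA, which overlaps the longer motif, was in 25.6% of all windows and again in Hes5 alone among the 8 genes. A match is a description of the letters, and binding was not measured.

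Library depth ranged from 3258008 counts (knockout 49) and 13603690 (knockout 29) to 33556002 (knockout 16); the other 7 held between 27308327 and 32045821. Prdm12 was at 8.74 to 42.7 CPM in knockout libraries and 74.3 to 264 CPM in wild-type libraries (CPM, counts scaled to a common library total with TMM factors), with no overlap. The 12 neuronal markers were all above 1 CPM in every library, as were the 10 glial and neural crest markers, which include Sox10. Several libraries stood apart in summed marker levels. Knockout 29 had 5348 CPM of glial and neural crest markers against 1554 to 2820 in the other 9. Knockout 49 had 367 CPM over 6 pituitary markers, against 38.9 in wild type 45 and at most 5.10 elsewhere; 3 of the 6 were at 0 in at least 1 library. Knockout 16 had 153 CPM over 7 central nervous system markers, against at most 35.1 elsewhere. Wild type 32 and 35 had 707 and 989 CPM of mesenchyme markers against 2843 to 10583 in the other 8. Those 2 were also the most alike of all 20 same-genotype pairs, though their counts differed by more than sampling noise (chi-square per gene 9.88).

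**Figure D1:**
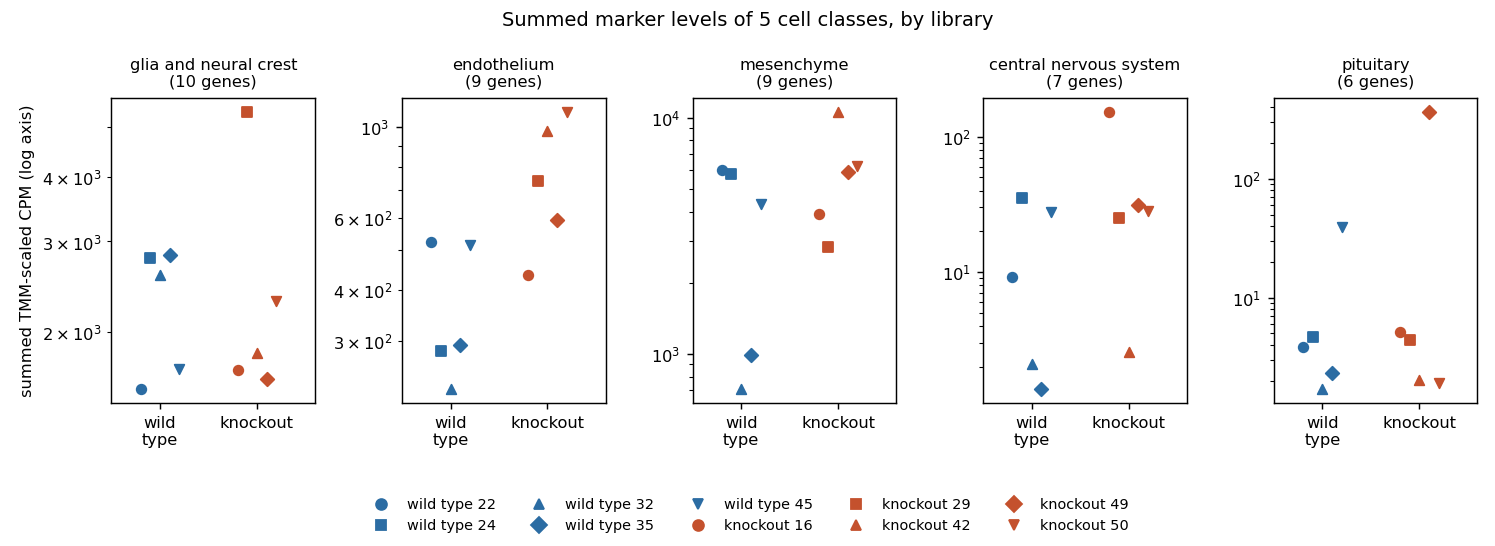
Summed level of each marker list (TMM-scaled CPM, log axis) in each library, wild type in blue and knockout in orange, 1 symbol per library. Knockout 29 is highest for glia (5348 CPM), knockout 49 for pituitary (367 CPM) and knockout 16 for the central nervous system (153 CPM), while wild type 32 and 35 are lowest for mesenchyme.

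None of the 10 genes passed the threshold of 0.05 on the adjusted p (edgeR quasi-likelihood test, Benjamini-Hochberg over 18005 genes), against 0.467% of all tested genes called (0.0944% higher and 0.372% lower in the knockout). Jag1 came nearest, at 1.504-fold its wild-type level, and was the 1 gene of the 10 whose groups did not overlap, where 4.21% of all tested genes had groups apart. Fitted fold changes were nonetheless above 0 for all 10, against 46.3% of all tested genes, though Hey1, Jag2 and Hes5 changed sign when single libraries were left out, and Hey1 and Jag2 also with limma voom and without knockout 29 and 49. The median log2 fold change of the 10 was 0.54, against -0.03 over all tested genes, and 5 of 10 had an unadjusted p under 0.05, where 13.1% of all tested genes did. DESeq2 called 2 of the 10 higher (Jag1 and Dll1, against 1.75% of its tested genes called higher) and limma voom with quality weights called 3 (Jag1, Notch2 and Notch3, against 7.02%).

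**Figure D2:**
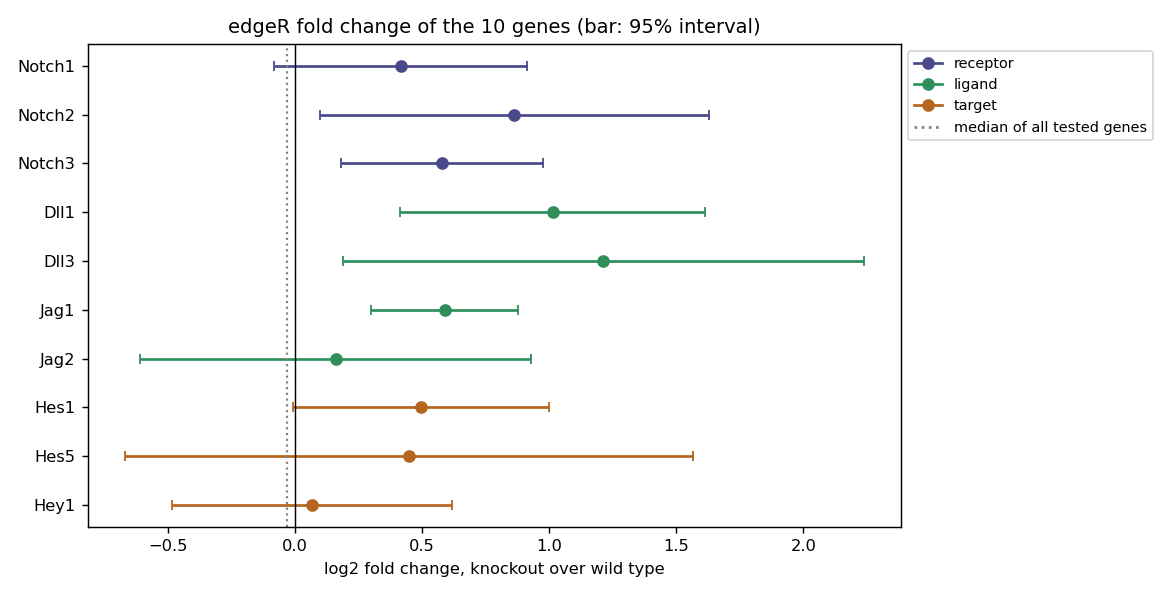
Fitted log2 fold change, knockout over wild type, of each gene with its 95% interval (edgeR, n = 5 libraries per genotype), coloured by role; the dotted line is the median of all tested genes. Intervals of Notch2, Notch3, Dll1, Dll3 and Jag1 lie above 0 before adjustment for multiple tests, and the Jag1 interval is the narrowest.

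Among the receptors, Notch1, the receptor of neural progenitors and many other cells, stood at 105, 228, 102, 90.6 and 132 CPM in knockout 16, 29, 42, 49 and 50, and at 99.2, 90.2, 106, 101 and 95.3 CPM in wild type 22, 24, 32, 35 and 45. The wild-type libraries were close together and 1 knockout library, number 29, was far above the rest. Its log2 fold change was 0.42 (SE 0.23, 95% interval -0.08 to 0.91, edgeR adjusted p = 0.451), and 0.16 without knockout 29. Knockout 29 had the highest glial marker sum of all libraries and also the highest neuronal sum of the knockout group (15353 CPM). The part of either cell class in the Notch1 value was not tested. In bulk samples such as these, a change in the number of cells of a type and in RNA per cell cannot be told apart.

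Notch2, which is expressed in mesenchyme as well as in neural tissue, showed the widest spread of the 3 receptors. It was at 119, 125, 229, 287 and 186 CPM in knockout libraries and at 156, 118, 50.2, 58.5 and 137 CPM in wild-type libraries, in the same library order. The groups overlapped, 3 knockout libraries lay above every control, and wild type 32 and 35 were far below the other 8 libraries. Notch2 had a log2 fold change of 0.86 (SE 0.35, 95% interval 0.10 to 1.63, edgeR adjusted p = 0.336), and 0.51 without wild type 32 and 35. Those 2 libraries also had the lowest mesenchyme sums, and the part of mesenchyme in the Notch2 difference was not tested.

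Notch3, a receptor known from pericytes and vascular smooth muscle and also made by neural cells, was at 114, 180, 121, 160 and 116 CPM in knockout libraries and 118, 81.3, 75.6, 79.7 and 108 CPM in wild-type libraries. Only wild type 22 reached into the knockout range, where it exceeded knockout 16 and 50. For Notch3 the log2 fold change was 0.58 (SE 0.18, 95% interval 0.18 to 0.97, edgeR adjusted p = 0.222), and 0.34 without the 2 shallowest libraries, knockout 29 and 49, which were its 2 highest. The summed pericyte and smooth muscle markers, 7 genes of which 0 were called, lay between 164 and 380 CPM in knockout libraries and between 87.1 and 246 CPM in wild-type libraries. Knockout 29, highest for Notch3, had the lowest pericyte sum of the knockout libraries (164 CPM). Among the controls the pericyte sum had the same order as Notch3, lowest in wild type 32 (87.1 CPM) and highest in wild type 22 (246 CPM). The part of pericytes in the Notch3 difference was not tested.

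**Figure D3:**
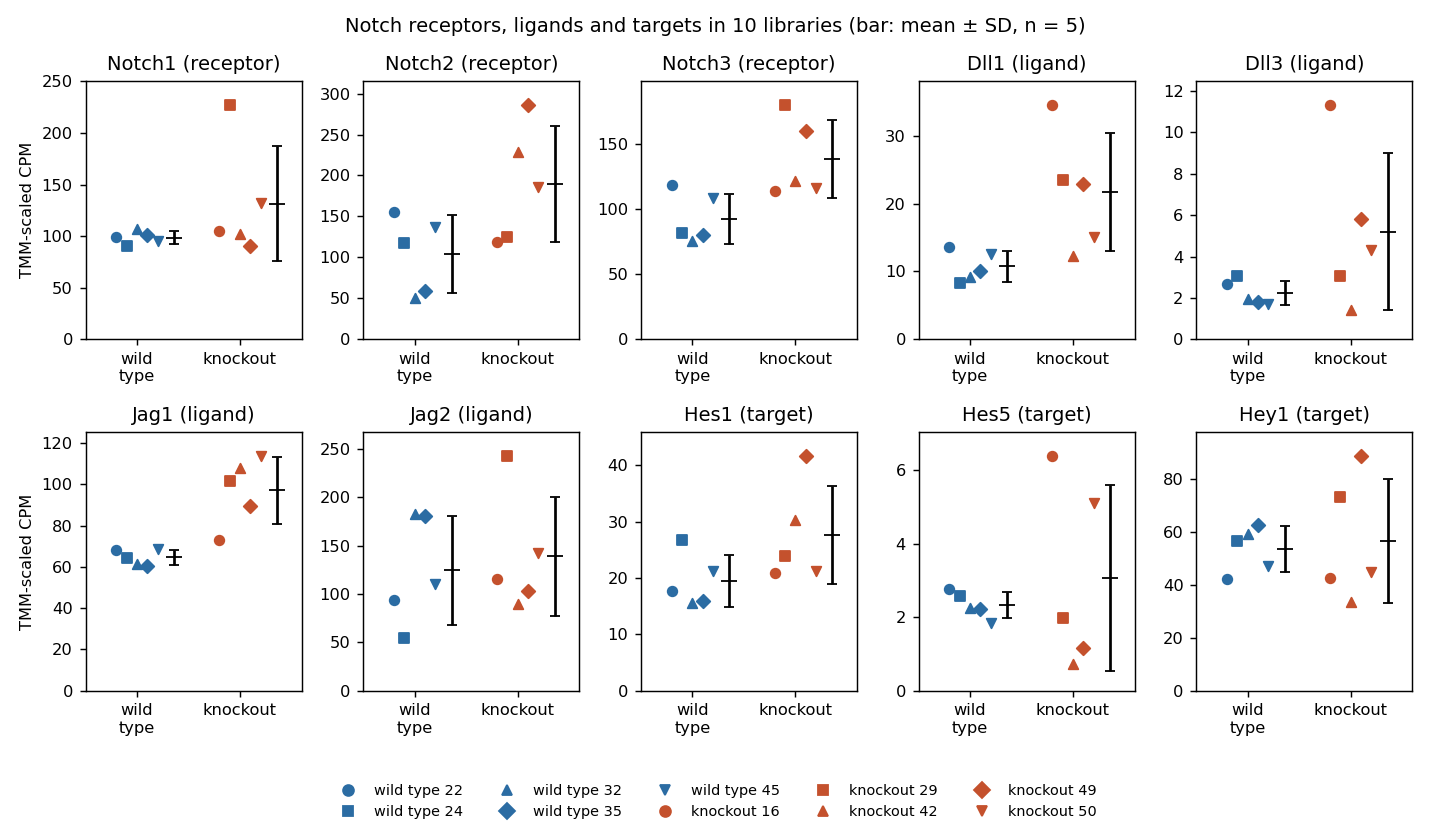
TMM-scaled CPM (linear axis from 0) of each gene in each library, wild type in blue and knockout in orange, 1 symbol per library, with the group mean and SD beside the points (n = 5). Jag1 is the panel with no overlap, its knockout libraries at 72.9 CPM or more and its wild-type libraries at 68.6 CPM or less.

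Jag1 is a ligand of vessels, glia and sensory epithelia. It stood at 72.9, 102, 108, 89.5 and 114 CPM in knockout 16, 29, 42, 49 and 50, and at 68.3, 64.4, 61.2, 60.7 and 68.6 CPM in wild type 22, 24, 32, 35 and 45. Every knockout library was above every wild-type library, though knockout 16 only by a small step, and the wild-type values were tightly grouped. The means were 97.2 ± 16.3 and 64.6 ± 3.76 CPM (SD, n = 5 per genotype), and the fitted difference was 0.59 on the log2 scale (SE 0.13, 95% interval 0.30 to 0.88, edgeR adjusted p = 0.0845). Without knockout 16 it was 0.68 and was called (edgeR adjusted p = 0.0407, 0.525% of tested genes were called in that fit, 0.191% as higher). Over all 20 alternative analyses its log2 fold change lay between 0.53 and 0.68, and 3 of them called it (adjusted p from 0.00285 to 0.469).

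Among the knockout libraries the endothelial marker sum had the same order as Jag1. The 9 genes of that list, none called, summed to 434, 737, 980, 592 and 1089 CPM in knockout libraries and to 522, 284, 229, 294 and 514 CPM in wild-type libraries. Knockout 16 had the lowest Jag1 and the lowest endothelial sum of the knockout libraries, and wild type 22 and 45 had the highest of both among the controls. The part of vessels in the Jag1 difference was not tested.

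Dll1, the ligand of newly born neurons, was less abundant and reached 34.6, 23.5, 12.3, 22.9 and 15.1 CPM in knockout libraries and 13.6, 8.34, 9.11, 10.04 and 12.6 CPM in wild-type libraries. In the knockout, 4 of 5 libraries lay above every control, and knockout 42 lay within the wild-type range. Dll1 had a log2 fold change of 1.01 (SE 0.27, 95% interval 0.41 to 1.62, edgeR adjusted p = 0.156), and DESeq2 gave 1.06 with an adjusted p of 0.0139. Without knockout 16, the library with the highest central nervous system sum, it was 0.77.

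Dll3, a ligand that does not activate Notch on neighbouring cells and acts inside the cell that makes it, was the least abundant ligand. It was at 11.4, 3.07, 1.42, 5.79 and 4.33 CPM in knockout libraries and 2.67, 3.04, 1.94, 1.81 and 1.73 CPM in wild-type libraries. Knockout libraries held both the highest value, in number 16, and the lowest, in number 42. The log2 fold change of 1.21 (SE 0.47, 95% interval 0.19 to 2.24, edgeR adjusted p = 0.313) was the largest of the 10 genes, and it was 0.66 without knockout 16. Depth limits the value in knockout 49, which rests on 20 counts.

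Dll1 and Dll3 were both highest in knockout 16, which also had the highest sum of central nervous system markers. The 7 markers of that list, 6 of them tested and 0 called, summed to 2.56 to 153 CPM in knockout libraries and 1.37 to 35.1 CPM in wild-type libraries, and 4 were at 0 in at least 1 library. Knockout 42, with the lowest sum of the knockout group (2.56 CPM), had the lowest Dll1 and Dll3 of that group. Wild type 24, with the highest sum of the controls (35.1 CPM), had the lowest Dll1 of all libraries (8.34 CPM) and the highest Dll3 of the controls (3.04 CPM). Whether central nervous system tissue contributed was not tested.

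Jag2, a ligand found in neurons and epithelia, followed another order of libraries. It was at 116, 243, 89.7, 103 and 143 CPM in knockout libraries and 93.8, 54.2, 183, 180 and 111 CPM in wild-type libraries. Groups overlapped widely, with knockout 29 highest and wild type 24 lowest. Its log2 fold change was 0.16 (SE 0.35, 95% interval -0.61 to 0.93, edgeR adjusted p = 0.868), which ran from -0.26 with limma voom to 0.75 without wild type 32 and 35. The summed neuronal markers, 12 genes with 0 called, were highest in knockout 29 (15353 CPM) and wild type 32 and 35 (14717 and 15438 CPM). In those same 3 libraries Jag2 was also highest. Wild type 24, lowest for Jag2, had a neuronal sum of 10427 CPM, above those of wild type 22 and 45 (8212 and 8738 CPM). The part of neurons in the Jag2 values was not tested.

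The 3 targets did not share 1 order of libraries. Hes1, a widely used Notch target and also a target of other signals, was at 20.9, 23.9, 30.3, 41.7 and 21.2 CPM in knockout libraries and 17.7, 26.7, 15.5, 15.9 and 21.3 CPM in wild-type libraries. The highest value came from knockout 49, and 2 of 5 knockout libraries exceeded every control. The log2 fold change was 0.50 (SE 0.23, 95% interval -0.01 to 1.00, edgeR adjusted p = 0.387), and 0.31 without knockout 49.

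Hes5, the target most tied to neural progenitors and glia, was the least abundant of the 3 targets per exon length. Hes5 was at 6.401, 1.97, 0.711, 1.16 and 5.10 CPM in knockout libraries and 2.77, 2.59, 2.25, 2.22 and 1.83 CPM in wild-type libraries. Knockout libraries lay on both sides of the narrow wild-type range, 2 above it (16 and 50) and 2 below it (42 and 49). The log2 fold change was 0.45 (SE 0.51, 95% interval -0.67 to 1.57, edgeR adjusted p = 0.715), and -0.0013 without knockout 16. In knockout 49 it rests on 4 counts, where 3 counts correspond to 0.869 CPM, so that value is close to the floor, which covers counting error only.

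Hey1, a target in endothelium and neural progenitors, was at 42.5, 73.1, 33.7, 88.9 and 45.01 CPM in knockout libraries and 42.2, 56.8, 59.1, 62.7 and 47.3 CPM in wild-type libraries. Again the knockout libraries spread to both sides of the controls, with 2 above and 1 below their range. Hey1 had a log2 fold change of 0.07 (SE 0.25, 95% interval -0.48 to 0.62, edgeR adjusted p = 0.927). The endothelial sum was highest in knockout 50 and 42, where Hey1 was at 45.01 and 33.7 CPM, so the order of Hey1 across knockout libraries was not that of the endothelial markers. Knockout 49, highest for Hey1, Hes1 and Notch2, is the shallowest library and has the highest pituitary sum. It also has the highest sum of 7 epithelium markers (263 CPM, against at most 82.2 CPM elsewhere). The part of depth, of pituitary cells and of epithelium in these values was not tested.

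Read library by library, the median of the 10 genes against their wild-type means (log2 CPM, prior count 2) was 0.25, 0.57, 0.14, 0.78 and 0.47 in knockout 16, 29, 42, 49 and 50. It was 0.17, 0.05, -0.12, -0.08 and 0.03 in wild type 22, 24, 32, 35 and 45. Knockout 42 thus lay below wild type 22, and the other knockout libraries lay above all controls. Of the 10 genes, 9 were above the wild-type mean in knockout 16, 29 and 50, 7 in knockout 49 and 6 in knockout 42, against 7 in wild type 22, 5 in wild type 24 and 45 and 3 in wild type 32 and 35, so the groups overlapped. The exception in the first 3 differed: Hey1 in knockout 16 and 50, and Hes5 in knockout 29. The same median and share over all tested genes are not given here for each library. A shift of a whole library therefore cannot be told apart from one of these 10 genes. Wild-type libraries also form the mean they are set against, which centres their values.

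**Figure D4:**
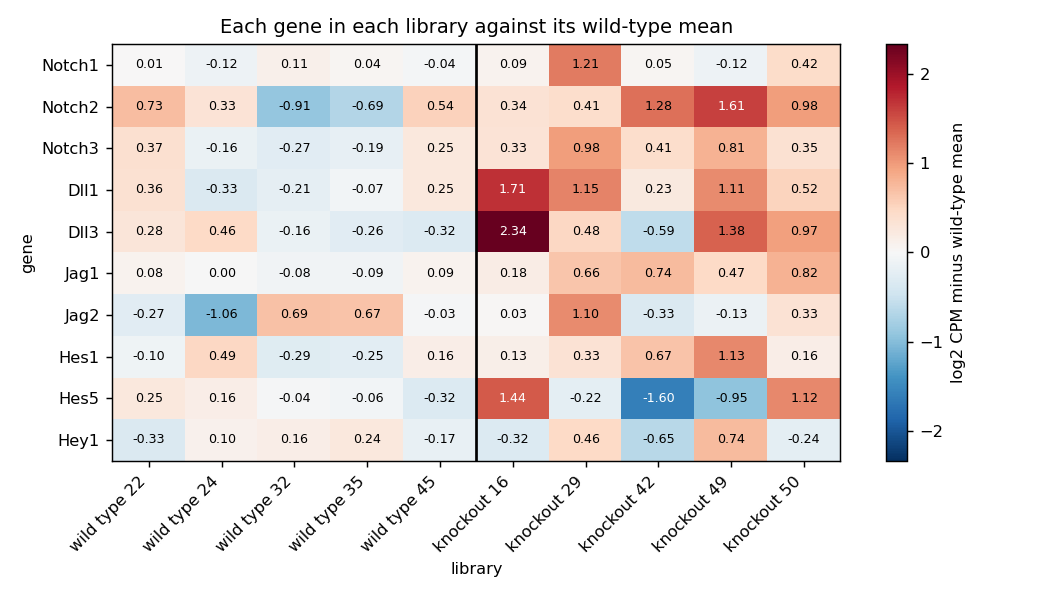
Difference of each gene's log2 CPM from its wild-type mean (color scale and printed values) in the 5 wild-type and 5 knockout libraries. Jag1, Notch2, Notch3, Dll1 and Hes1 are above 0 in all 5 knockout columns, whereas Hes5 runs from -1.60 in knockout 42 to 1.44 in knockout 16.

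Levels can be compared between genes only per length, for which CPM was divided by the summed exon length of each gene in GENCODE M21 (all transcripts merged, so genes with many alternative exons are understated). On this scale the wild-type order was Jag2 at 17.8 ± 8.04, Hey1 at 16.4 ± 2.63, Notch3 at 11.45 ± 2.38, Jag1 at 11.1 ± 0.645, Notch2 at 9.63 ± 4.39 and Hes1 at 9.53 ± 2.28 CPM per kb (SD, n = 5). Each of these 6 overlapped its neighbour in the order across the 5 libraries. Below them stood Notch1 at 6.92 ± 0.431, Dll1 at 2.54 ± 0.534, Hes5 at 1.71 ± 0.266 and Dll3 at 0.785 ± 0.205 CPM per kb. Hes1 did not overlap Notch1, Notch1 did not overlap Dll1, and Hes5 did not overlap Dll3, while Dll1 and Hes5 did overlap. In the knockout the first and the last 5 places were held by the same genes, Jag2 and then Hes1, Notch1, Dll1, Hes5 and Dll3, and Notch2 stood second at 17.5 ± 6.58 CPM per kb.

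The rest of the pathway was followed in 68 further genes of 9 groups, of which 65 were tested. None was called by edgeR, against 0.467% of all tested genes, and 14 had an unadjusted p under 0.05, against 13.1% of all tested genes. DESeq2 called 4 and limma voom 13 (2.98% and 13.0% of all their tested genes were called in either direction). The median log2 fold change of the 65 was 0.12. Groups did not overlap for 6 of the 65, with 4 higher in the knockout (Dll4, Neurl1a, Lfng and Maml3) and 2 lower (Adam10 and Poglut1), where 1.29% and 2.92% of all tested genes were separated in these directions. These 6 were named after their values were seen. Below, the most abundant gene of a group is that with the highest mean CPM, not divided by exon length. Per length the order within a group could differ.

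Among 5 other receptors and ligands, Dlk1, the most abundant, was at 243 ± 170 CPM in knockout libraries and 185 ± 91.2 CPM in wild-type libraries. Dll4, the ligand of sprouting endothelium, was at 10.4 to 24.5 CPM in knockout libraries and 3.55 to 10.2 CPM in wild-type libraries (log2 fold change 1.35, SE 0.32, edgeR adjusted p = 0.104). The endothelial receptor Notch4 was at 24.9 ± 10.4 and 14.8 ± 3.99 CPM with overlap. Neither gene passed. The endothelial marker sum was 434 to 1089 CPM in knockout libraries and 229 to 522 CPM in wild-type libraries. The part of endothelium in the Dll4 and Notch4 values was not tested.

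Ligand and receptor modifiers varied one by one. Of 4 ubiquitin ligases that make ligands active, Mib1 was the most abundant at 178 ± 26.4 CPM in knockout libraries and 210 ± 20.2 CPM in wild-type libraries, and Neurl1a was at 13.9 to 20.2 against 9.17 to 12.7 CPM. Of 5 glycosyltransferases, the fringe gene Lfng, which alters the choice of ligand, was at 14.01 to 18.2 CPM in knockout libraries and 5.72 to 10.6 CPM in wild-type libraries (log2 fold change 0.96, SE 0.21, edgeR adjusted p = 0.0807, called in 3 of 20 alternatives). Poglut1, which adds glucose to the receptor, was at 80.9 ± 9.94 CPM in knockout libraries and 109 ± 7.19 CPM in wild-type libraries.

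Of 10 proteases and secretase subunits, Adam10 had the highest mean CPM, and it was the nearest to a call in the lists. Adam10 makes the first cut in the activated receptor and also cuts many other surface proteins. It was at 216, 210, 258, 267 and 304 CPM in knockout libraries and at 411, 385, 601, 614 and 406 CPM in wild-type libraries. Wild type 32 and 35 were highest and had high neuronal sums (14717 and 15438 CPM). Knockout 29 had a high neuronal sum too (15353 CPM) but the lowest Adam10 of all 10 libraries. The part of neurons in the Adam10 values was not tested. Every knockout library lay below every wild-type library, with a log2 fold change of -0.95 (SE 0.18, edgeR adjusted p = 0.0517, called in 3 of 20 alternatives). The 9 other members had overlapping groups.

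In the nucleus, the 12 genes of the transcription complex and its corepressors had a median log2 fold change of 0.08. Ncor1, the most abundant, was at 251 ± 10.1 and 258 ± 22.3 CPM, and Rbpj itself at 50.1 ± 12.1 and 57.0 ± 1.24 CPM. Maml3, a coactivator, was at 34.5 ± 2.88 against 27.5 ± 2.17 CPM. Of 9 regulators of receptor turnover, 0 had separate groups, and the most abundant, Dtx3, was at 272 ± 44.8 and 228 ± 52.6 CPM.

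Of 13 other Hes and Hey genes and Notch-responsive genes, 10 were tested, and none had separate groups (median log2 fold change 0.02). The most abundant, Id3, was at 193 ± 56.5 CPM in knockout libraries and 144 ± 50.5 CPM in wild-type libraries. Hey2 was at 70.3 ± 18.7 and 78.9 ± 22.1 CPM and Heyl at 103 ± 48.5 and 69.1 ± 13.4 CPM. Among 5 proneural genes, which drive Dll1 in new neurons, Neurod1 was the most abundant at 42.8 ± 29.6 and 85.6 ± 26.4 CPM, with overlap (log2 fold change -0.996, SE 0.46, edgeR adjusted p = 0.380). The 5 genes of the Tle family, not all of which are corepressors that Hes proteins recruit, had a median log2 fold change of -0.03. Tle5, the most abundant, was at 333 ± 62.0 and 340 ± 58.8 CPM.

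The genes whose log2 CPM followed each of the 10 most closely over the 10 libraries were named by their 3 highest Pearson correlations among all tested genes. These are descriptions of the same 10 libraries, chosen as maxima over 18005 genes. For Jag1 they were Col4a2 (0.98), Col4a1 (0.98) and Mmp28 (0.97), of which the first 2 encode collagen IV chains of basement membranes. Col4a1 was at 1017 CPM in knockout libraries and 494 CPM in wild-type libraries on average, and was not called. For Jag2 they were Spred3 (0.99), Coro7 (0.98) and Ptprn (0.98). For Dll1 they were Begain (0.94), Zfp608 (0.93) and Mtss1 (0.93), and for Dll3 Rnf182 (0.92), Barhl1 (0.91) and Rai2 (0.91). Barhl1 is a homeobox gene of central and other neurons.

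For the receptors, Notch1 was followed by Tbx2 (0.98), Phldb1 (0.97) and Sh2d3c (0.97), Notch2 by Prtg, Plaur and Tanc1 (each 0.98), and Notch3 by Usp43 (0.96) and Syne2 (0.95). For the targets the values were lower. Hes1 was followed by Ang (0.93), Oma1 and Lmod1 (each 0.92), Hey1 by Saraf (0.94), Prtn3 (0.89) and Stard10 (0.88), and Hes5 by Mfsd2a (0.90), Sox2ot (0.86) and Fam167a (0.85). None of the genes named here for likeness was called, and none was among the 10 genes or the pathway lists.

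Genes that overlap the 10 in the GENCODE M21 annotation could share reads with them, since strand-specific counting is not stated in the sources used here. Overlapping genes with counts reached at most 2.61 CPM in any library (Gm17276, antisense to Notch3), 1.45 CPM for 0610009E02Rik opposite Notch1 and 0.290 CPM for Gm20421 opposite Hes5. The last is to be set against 0.711 to 6.401 CPM of Hes5.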

How the data were processed

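RNA of 10 dissected trigeminal ganglion samples was measured. The deposited files hold raw counts per Ensembl gene, 1 file per sample. Per the submitters' processing notes, the authors' tools were featureCounts (1.5.0-p1), STAR (2.7.10a) and bcl2fastq (2.20.0.422), and the builds GRCm39 and mm10 are named without their roles. Annotation release, strand setting and multi-mapping: not given in the sources used here. Symbols matched 52081 of 55414 IDs, and Tle5 was found under its older symbol Aes. Because builds are uncertain, gene coordinates are not given; promoter sequences are RefSeq's on GRCm38.p6. From the counts, genes were kept with filterByExpr (minimum count 10), scaled with TMM and tested with edgeR 4.0.16 (glmQLFit, glmQLFTest) in R 4.3.3, genotype as the only term, Benjamini-Hochberg over all genes kept. The SE of a log2 fold change is its size over the square root of F. DESeq2 1.42.0, limma 3.58.1, other scalings and filters, and fits without libraries were alternatives. Scripts were tested on simulated data. The named-gene rule took all 10, the gene of highest mean CPM in each pathway group without a call, and the 3 closest profiles. That rule, the 10 genes and the pathway and marker lists were chosen with earlier results of these data known. One close profile of Notch3 is not reported here.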

Additional observations from a re-analysis of the deposited data

Results flagged for a closer look

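In 22 tests of single libraries (Prdm12 and the 10 genes in each genotype), 1 value stood apart from the other 4 of its group by Dixon's criterion, where chance gives about 1 in 20. Prdm12 was at 42.7 CPM in knockout 29, against 8.74 to 17.0 CPM in the other knockout libraries.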

How the results depend on the processing

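The log2 fold changes, the median of the 10 genes and the counts of calls were recomputed in 20 alternatives, 1 of them (without knockout 49 and wild type 45, the libraries with the highest pituitary sums) chosen after seeing the data. Notch1, Notch2, Notch3, Dll1, Dll3, Jag1 and Hes1 kept a positive log2 fold change in all 20, and the median of the 10 genes stayed between 0.47 and 0.61. Calls appeared with DESeq2 for Dll1 (1.06) and Jag1 (0.64), with limma voom for Notch2 (1.35), Notch3 (0.50) and Jag1 (0.68), and without knockout 16 for Jag1 (0.68). With limma voom Jag2 was at -0.26 and Hey1 at -0.28. Without the 2 shallowest libraries Jag2 was at -0.10 and Hey1 at -0.41, and without knockout 49 and wild type 45 Hey1 was at -0.19. Leaving out each library in turn gave -0.10 to 0.38 for Jag2, -0.14 to 0.21 for Hey1, -0.0013 to 0.71 for Hes5 and 0.53 to 0.68 for Jag1. Of the 10 genes, 2 were called by DESeq2, 3 by limma voom, and 0 to 1 when a library was left out. Of the pathway lists, 1 was called with no filter on low counts, 4 by DESeq2, 13 by limma voom and 0 to 1 when a library was left out. Over all tested genes DESeq2 called 2.98% and limma voom 13.0%, and the counts over all genes in the other fits follow below.

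Over all genes, 17 were called higher and 67 lower in the knockout. These counts were 55 and 102 with no filter, 354 and 248 with DESeq2, 1264 and 1080 with limma voom, and 2 to 35 and 27 to 88 when a library was left out. Without the 2 shallowest libraries 6 were higher and 47 lower. Without wild type 32 and 35, edgeR called 0 higher and 19 lower (731 and 506 at an unadjusted p under 0.05). Without knockout 49 and wild type 45 it called 0 and 26 (865 and 821). Fits without 2 libraries also had fewer samples, and the cause of their lower counts was not tested. No paired analysis was possible because no replicate number occurs in both genotypes. Marker sums, levels per length, library medians, counts of separate groups and correlations were not recomputed. Depth limits Hes5 and Dll3 in knockout 49.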
